A study of Gallus gallus with 2 samples.

Results

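Nuclei of chicken (Gallus gallus) thymus that carried transcripts of the B cell transcription factors PAX5 and EBF1 were examined in 2 droplet single-nucleus RNA libraries. A member nucleus had at least 200 detected genes and at least 2 unique molecular identifiers (UMIs, each standing for 1 captured transcript) of PAX5 and EBF1 together. It also had no UMI of DNTT and RAG1, which act in antigen receptor gene recombination, and none of FOXN1, the factor of thymic epithelium. The rule kept 145 of 10745 barcodes. Replicate 1 gave 74 of 5171, or 1.43% with an exact 95% interval of 1.13 to 1.79%, and replicate 2 gave 71 of 5574, or 1.27% with an interval of 0.996 to 1.60%. Both libraries were made from flash frozen thymus of 5-week-old female birds, for a survey of cell types across the immune organs of the chicken. They form 1 group of 2 replicates, no condition differs between them, and the labels give no strain, genotype or treatment. The labels do not say whether the libraries came from separate birds. P-values therefore measure only how far differences between groups of nuclei varied between these 2 libraries, which may be technical.

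The thymus is the organ in which T cells mature, and B cells are a minor population there. In mouse and human thymus, B cells present antigen to developing T cells and take part in the removal of self-reactive ones. In birds, B cells are made in the bursa of Fabricius. PAX5 and EBF1 maintain B cell identity. A B cell senses antigen through surface immunoglobulin, whose CD79 chains recruit the kinases LYN and SYK. The linker BLNK and the kinase BTK then activate phospholipase PLCG2, which feeds the NF-kappaB, NFAT and Ras pathways.

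Replicate 1 held 4826743 UMIs in 6564 barcodes and replicate 2 held 6570941 UMIs in 6050 barcodes. Of the barcode sequences, 13 occurred in both libraries, and none of them belonged to a member. The member nuclei had a median of 1091 and 1372 UMIs (replicates 1 and 2, an order kept for all pairs of values below), against 686 and 856 in all other barcodes. A score built from simulated doublets called 2 and 3 members, which were kept. Members with 2 or more T cell UMIs, counted over CD3E, CD3D, TRAT1 and THEMIS together, numbered 11 and 14, and 10 and 11 of them carried PAX5.

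The members fell into 2 subsets by PAX5. In 101 nuclei (51 and 50) PAX5 was detected, in 47 and 43 of them with EBF1, and these are called PAX5-positive. The remaining 44 nuclei (23 and 21, or 31.1% and 29.6% of the members) were kept by EBF1 alone and are called EBF1-only. PAX5 lies on chromosome Z at 85810944 to 85926014 and EBF1 on chromosome 13 at 10287788 to 10551209 of the GRCg7b assembly. PAX5-positive nuclei held 157 and 275 PAX5 UMIs, with a median of 2 and 4 per nucleus. All other barcodes together held 22 and 18. EBF1 reached a median of 5 and 4 UMIs in PAX5-positive nuclei and of 4 and 6 in EBF1-only nuclei. The members were chosen by these PAX5 and EBF1 counts, which are therefore given as description. At the threshold, 15 and 12 members had a sum of exactly 2, while 52 and 34 barcodes had a sum of 1 and stayed outside. A UMI of 8 further B cell markers was found in 5 and 7 of those inside and in 6 and 14 of those outside. Another 5 and 5 barcodes reached the sum but carried DNTT, RAG1 or FOXN1.

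**Figure D1:**
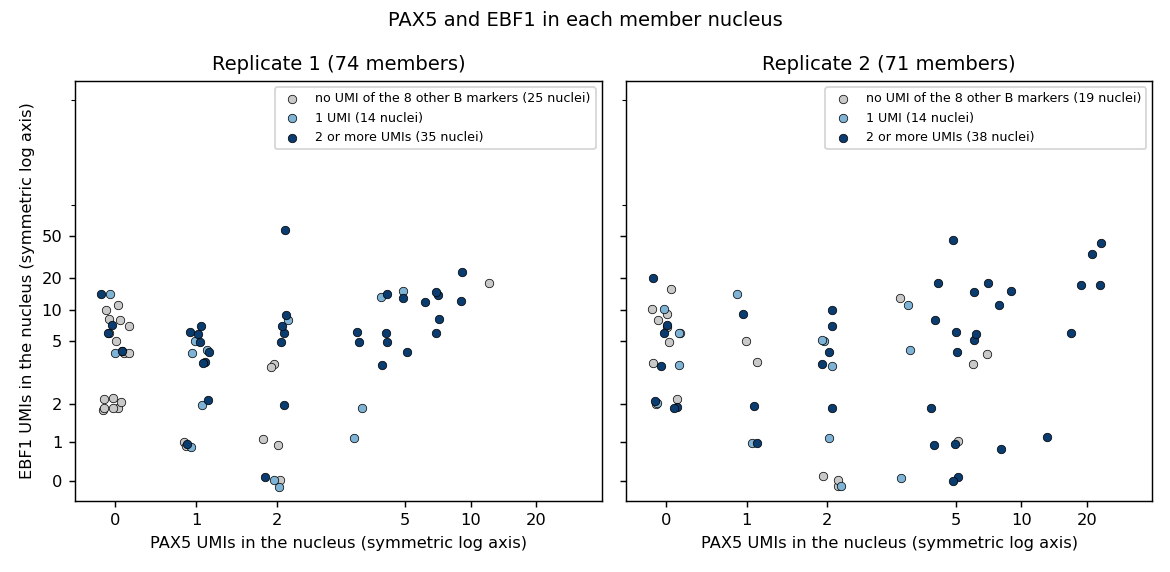
PAX5 UMIs (x axis) and EBF1 UMIs (y axis) in each of the 145 member nuclei, by replicate, on symmetric log axes with a small random shift that separates points; the shade gives the UMIs of 8 other B cell markers. The column at 0 PAX5 UMIs holds the 23 and 21 EBF1-only nuclei, where points without another B marker UMI are frequent.

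Markers of the B cell label were frequent in the PAX5-positive nuclei and sparse in the EBF1-only nuclei. The 8 markers that the rule did not use were SYK, MZB1, CD79B, SH2D6 (the symbol to which RefSeq assigns the synonym BLNK), BTK, CD72, POU2AF1 and BANK1. Their summed level in CPM, which scales UMIs to the UMI total of the group in that library, was 1910.6 and 2111.7 in PAX5-positive nuclei, 361.1 and 288 in EBF1-only nuclei and 68.9 and 90 in other barcodes. At least 1 UMI of them was present in 84.3% and 82.0% of PAX5-positive nuclei, in 26.1% and 52.4% of EBF1-only nuclei and in 4.38% and 7.29% of other barcodes. EBF1-only nuclei were deeper, with a median of 1155 and 2601 UMIs against 1088 and 1206. After each nucleus was thinned to 500 UMIs, which left out 2 and 1, 1 and 0, and 1399 and 927 shallower ones, the shares were 61.2% and 55.1%, 18.2% and 14.3%, and 3.19% and 3.87%. SYK (18 and 18 UMIs) and CD72 (7 and 2 UMIs) had no UMI in any EBF1-only nucleus. The summed level alone did not set PAX5-positive nuclei apart from nuclei chosen by the dendritic genes FLT3 and PAPPA, where the same markers reached 1515 and 1734.2 CPM. Most of that was BANK1, at 1383.2 and 1647.4 CPM there and 114.1 and 90.1 CPM in PAX5-positive nuclei. MZB1, BTK, CD72 and POU2AF1 had no UMI in FLT3 PAPPA nuclei, and all 8 markers had UMIs in PAX5-positive nuclei of both libraries. The EBF1-only nuclei are called by their rule and not by a cell type.

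Markers of other cell types differed between the subsets. The 6 epithelial markers beside FOXN1 summed to 99.8 and 77.3 CPM in PAX5-positive nuclei and to 555.5 and 1241.8 CPM in EBF1-only nuclei, against 157.6 and 155.1 CPM in other barcodes. EPCAM and CDH1, adhesion molecules of epithelia, had 0 UMIs in PAX5-positive nuclei, and in EBF1-only nuclei EPCAM had 4 and 75 UMIs and CDH1 had 3 and 25. Mesenchymal markers reached 1083.2 and 180 CPM in EBF1-only nuclei, with 82.1% of the UMIs of replicate 1 from a single nucleus, against 85.5 and 25.8 CPM in PAX5-positive nuclei. Endothelial markers reached 749.9 and 153 CPM in EBF1-only and 413.5 and 270.4 CPM in PAX5-positive nuclei, above the 136.5 and 139 CPM of other barcodes. Most of the sum in PAX5-positive nuclei was ERG, the only 1 of 3 tested that was called there, and 4 and 6 of the 8 markers had no UMI. T cell markers summed to 4120.6 and 2922.8 CPM in PAX5-positive nuclei and 2666.3 and 2366.6 CPM in EBF1-only nuclei, far under the 20654.3 and 22497.3 CPM elsewhere. A T cell marker UMI was present in 54.9% and 44% of PAX5-positive nuclei. Some of these had no UMI of the 8 B cell markers, such as 1 nucleus with 24 T cell marker UMIs in replicate 1 and 1 with 40 in replicate 2. The PAX5-positive sums include such nuclei, so a level there is not that of B cells alone. The macrophage list gave 42.8 and 180.3 CPM in PAX5-positive nuclei, 111.1 and 270 CPM in EBF1-only nuclei and 67.4 and 82.7 CPM in other barcodes. Dendritic markers other than FLT3 and PAPPA gave 570.3 and 708.2, 1305.4 and 1601.7, and 376.8 and 357.6 CPM in the same order, with XCR1 at 0 in all members. The summed erythroid, thrombocyte and cytotoxic lists stayed at or under 128.8 CPM in both subsets. An alternative fit against other barcodes, chosen after seeing the data, left out members with 2 or more T cell UMIs. In it 8 of 14 proximal receptor signalling genes were higher and 14 of 15 T cell markers lower. RGS1, TAP2, NLRC5, CD86, MCL1, FAS, DERL3, PRDM1, IKZF1 and CCR6, called for all members, were not called in it. Beyond that fit, the part of other cell types in the results below was not tested. List counts are given for all members and for PAX5-positive nuclei alone, and gene values for both sets or for the one named.

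**Figure D2:**
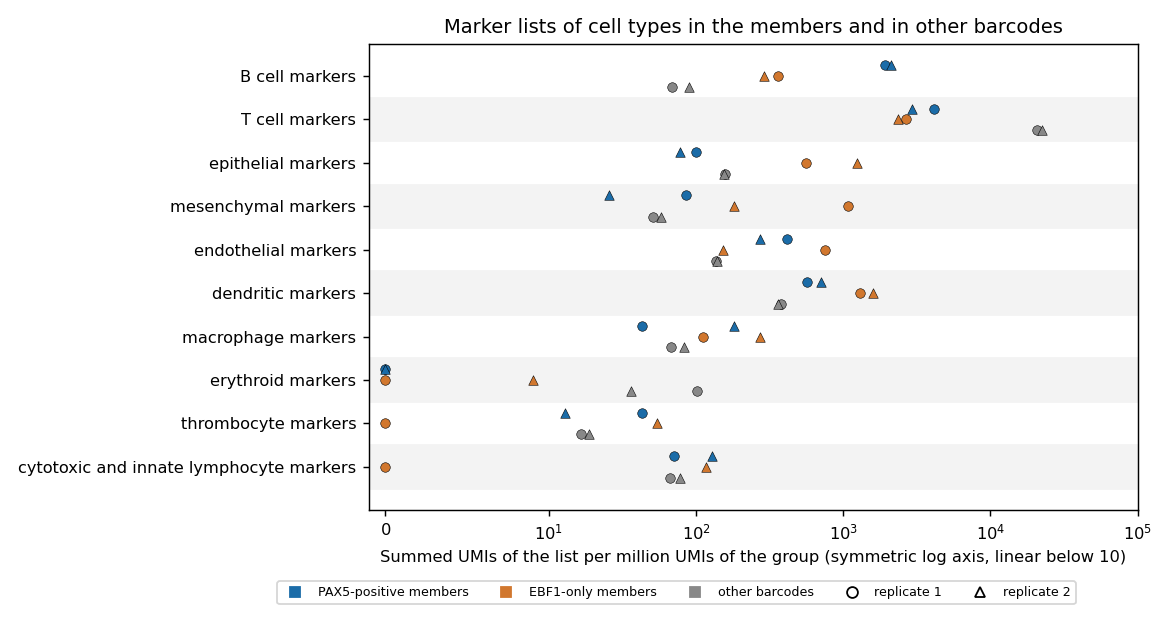
Summed UMIs of each marker list in CPM (x axis, symmetric log) in PAX5-positive members, EBF1-only members and other barcodes, with 1 point per replicate. B cell markers are highest in PAX5-positive nuclei (1910.6 and 2111.7), epithelial markers in EBF1-only nuclei (555.5 and 1241.8) and T cell markers in other barcodes.

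Against all other barcodes, the member nuclei had higher levels of many B cell receptor signalling and antigen presentation genes and lower levels of T lineage genes, while B lineage transcription factors moved in both directions. The comparison used UMI sums per library in edgeR's quasi-likelihood test with the library as a block, Benjamini-Hochberg adjustment and a threshold of 0.05. Of 11503 genes tested, 1793 were called (15.6%), 936 higher in the members (8.14%) and 857 lower (7.45%). With PAX5-positive nuclei alone, 897 of 10584 genes were called (8.48%), 328 higher (3.1%) and 569 lower (5.38%). Of the 936 higher genes, 254 (27.1%) were also higher with PAX5-positive nuclei alone, which is 77.4% of the 328. Fold changes below are on the log2 scale, where the median over all genes tested was -0.21 for all members and -0.32 for PAX5-positive nuclei.

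The proximal signalling genes of the B cell receptor were mostly higher than in other barcodes. Of 14 tested, 8 were higher in all members and 10 in PAX5-positive nuclei, none was lower, and the median log2 fold change was 1.84 and 2.45. The list summed to 7956 and 8935.9 CPM in PAX5-positive nuclei and 2234.7 and 2344.5 CPM in other barcodes. It was also raised in FLT3 PAPPA nuclei, at 4479 and 4942.3 CPM. Nuclei chosen by the macrophage genes MARCO and STAB1 held 3505.7 and 4291.1 CPM. SYK, the kinase that relays the signal from the receptor (chromosome Z, 44660428 to 44712213), stood at 256.6 and 231.8 CPM in PAX5-positive nuclei, at 0 in EBF1-only nuclei and at 4.04 and 3.19 CPM in other barcodes. Its log2 fold change was 4.95 (SE 0.79, adjusted p = 1.01e-08) for all members and 5.80 (SE 0.87, adjusted p = 2.07e-09) for PAX5-positive nuclei. A SYK UMI was present in 19.6% and 24.0% of PAX5-positive nuclei. SH2D6 stood at 827 and 1197.5 CPM in PAX5-positive nuclei, 222.2 and 225 CPM in EBF1-only nuclei and 17.1 and 16.6 CPM elsewhere, and its log2 fold change in PAX5-positive nuclei was 5.63 (SE 0.30, adjusted p = 7.98e-76). Both libraries placed it in the same order across the 3 groups of nuclei. PIK3AP1, the adaptor that links the receptor to phosphoinositide 3-kinase, stood at 812.7 and 592.3 CPM against 23.8 and 21.5 CPM, a log2 fold change of 4.67 (SE 0.32, adjusted p = 9.42e-46) in PAX5-positive nuclei. PLCG2 stood at 1211.9 and 1429.2 CPM against 135.4 and 126.2 CPM, with a log2 fold change of 3.07 (SE 0.25, adjusted p = 1.87e-31).

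The kinases LYN and BTK, the adaptor DAPP1 and the exchange factor VAV2 were higher in all members and in PAX5-positive nuclei. In PAX5-positive nuclei their log2 fold changes ran from 1.53 (SE 0.25) for VAV2 to 2.90 (SE 0.69) for BTK. BLK, a kinase of the same family as LYN, and BANK1, a scaffold for LYN and PLCG2, passed with PAX5-positive nuclei alone, at log2 fold changes of 1.58 (SE 0.39, adjusted p = 0.00115) and 2.92 (SE 0.92, adjusted p = 0.0218). For all members the adjusted p was 0.0859 for BLK and 0.0739 for BANK1. VAV3, with 1240.4 and 1648.1 CPM in PAX5-positive nuclei, was also frequent in other barcodes at 921.6 and 1078.8 CPM and did not pass (PAX5-positive nuclei, adjusted p = 0.684). The lipid kinase subunits PIK3CD and PIK3CG and the adaptor GRB2 did not pass in either test. VAV2 did not pass under DESeq2.

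Of the receptor complex and its coreceptors, 5 genes were tested, and CD79B, IGLL1 and CD81 were higher in all members and in PAX5-positive nuclei. CD79B, a signalling chain of the receptor, stood at 327.9 and 167.4 CPM in PAX5-positive nuclei against 19.1 and 35.7 CPM in other barcodes, a log2 fold change of 2.93 (SE 0.54, adjusted p = 2.84e-06). For all members it was 2.19 (SE 0.51), and that call was lost under DESeq2 and without the library block. IGLL1 lies on chromosome 15 at 7933262 to 7955461. In mammals a gene of this symbol encodes part of the surrogate light chain, and what the chicken gene encodes was not tested. It stood at 556.1 and 682.4 CPM in PAX5-positive nuclei and at 83.3 and 36 CPM in EBF1-only nuclei. Other barcodes held 15.9 and 5.42 CPM, and the log2 fold change in PAX5-positive nuclei was 5.74 (SE 0.37, adjusted p = 3.28e-52). IGLL1 UMIs were present in 31.4% and 44.0% of PAX5-positive nuclei. CD81, a partner of the coreceptor, was higher in both subsets at 541.8 and 489.3 CPM and 333.3 and 422.9 CPM, against 139.9 and 111.7 CPM elsewhere (all members, log2 fold change 1.71, SE 0.28, adjusted p = 4.14e-08). PTPRC, the CD45 phosphatase of leukocytes, was lower in all members (log2 fold change -0.72, SE 0.24, adjusted p = 0.0236) but stood at 1711 and 1506.5 CPM in PAX5-positive nuclei against 1419.3 and 1420.8 CPM (adjusted p = 0.937). CD79A, CR2, CD22 and CHB6 were not matched by symbol and were not analysed here.

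**Figure D3:**
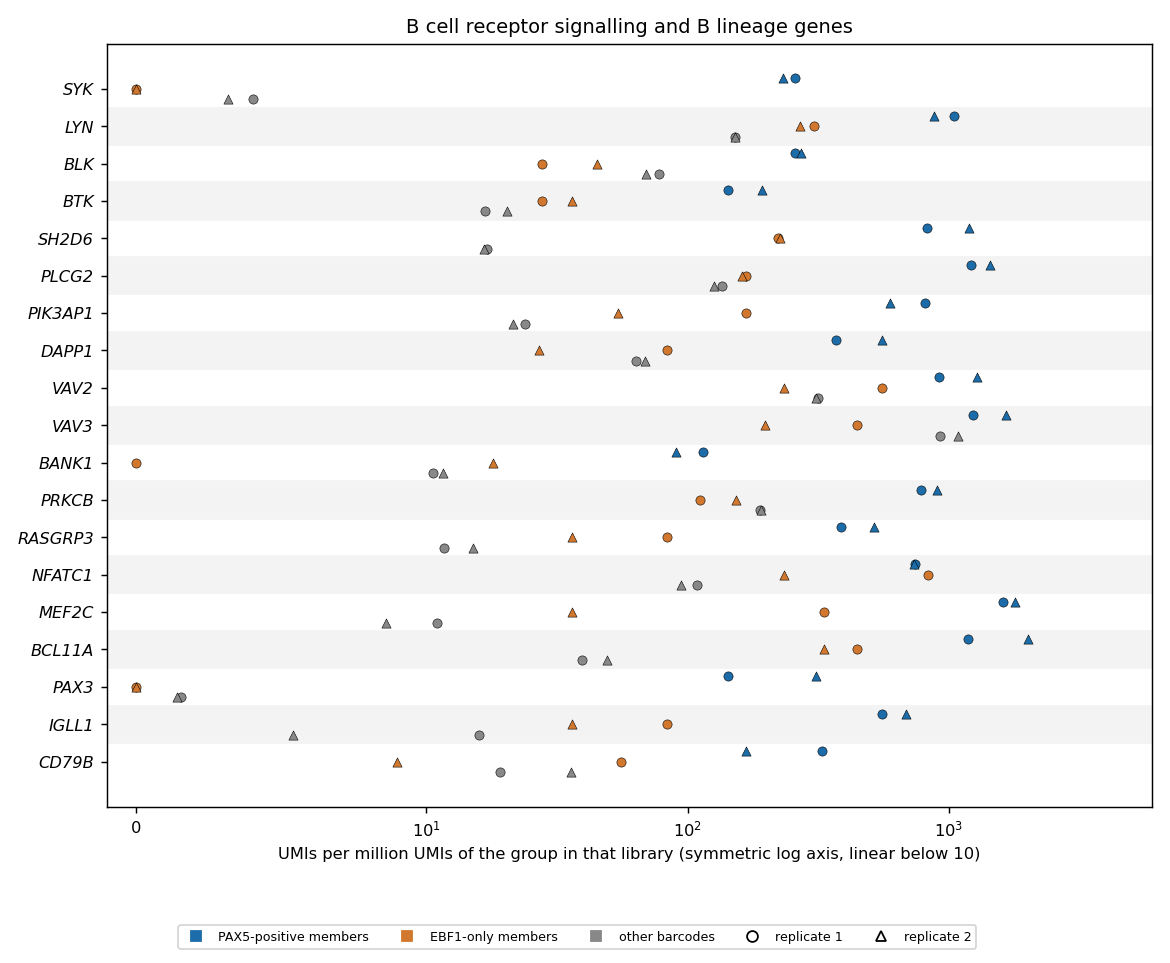
Level of 19 B cell receptor signalling and B lineage genes (rows) in CPM (x axis, symmetric log), with 1 point per replicate for PAX5-positive members, EBF1-only members and other barcodes. For SYK, SH2D6, PIK3AP1, RASGRP3, MEF2C, BCL11A, PAX3 and IGLL1 both PAX5-positive points lie to the right of the points of both other groups.

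Downstream of the receptor, 6 of 12 genes tested were higher than in other barcodes and 1 was lower in all members, and 7 and 1 in PAX5-positive nuclei. The summed list did not set PAX5-positive nuclei (3792.6 and 4223.3 CPM) apart from FLT3 PAPPA nuclei (4610.7 and 3598.4 CPM). It reached 2290.4 and 2018 CPM in MARCO STAB1 nuclei and 1501.2 and 1414.4 CPM in other barcodes. RASGRP3, which activates Ras, stood at 385 and 515 CPM in PAX5-positive nuclei against 11.7 and 15.1 CPM in other barcodes (all members, log2 fold change 4.07, SE 0.41, adjusted p = 2.49e-21, and also called in PAX5-positive nuclei). NFATC1 was higher in both subsets in replicate 1, at 741.4 and 833.2 CPM against 108.2 CPM, and in replicate 2, at 733.9 and 234 CPM against 94.8 CPM. Its log2 fold change was 2.35 (SE 0.28) for all members and 2.60 (SE 0.27) for PAX5-positive nuclei. PRKCB, the kinase that activates NF-kappaB after receptor engagement, and the NF-kappaB genes NFKB1, REL and NFKBIA were higher by 1.05 (SE 0.31) to 2.74 (SE 0.43) in all members, and REL lost its call under DESeq2 and without the filter on low counts. PRKCD, a kinase that restrains B cells, was lower at 199.6 and 141.6 CPM in PAX5-positive nuclei against 446.9 and 448 CPM (log2 fold change -1.67, SE 0.33). The call of PRKCD for all members was lost when the other barcodes were also required to have none of the 5 genes of the rule.

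Inhibitors of receptor signalling moved in both directions. Of 9 tested, CSK, PTPN6 and RGS1 were higher and CBL and DGKZ lower in all members, and in PAX5-positive nuclei INPP5D was also higher and DGKZ was not called. PTPN6, the SHP1 phosphatase, stood at 442 and 309 CPM in PAX5-positive nuclei, 83.3 and 72 CPM in EBF1-only nuclei and 108.9 and 88.6 CPM in other barcodes (PAX5-positive nuclei, log2 fold change 1.65, SE 0.33, adjusted p = 1.95e-05). INPP5D, the SHIP1 phosphatase, stood at 442 and 721.1 CPM against 264.8 and 223.9 CPM (log2 fold change 0.98, SE 0.27, adjusted p = 0.00508). CBL, a ubiquitin ligase that ends signalling, was lower at 114.1 and 115.9 CPM against 373 and 381.2 CPM (log2 fold change -1.98, SE 0.36). CSK, which switches LYN off, differed between the libraries in other barcodes, at 4.49 and 44.6 CPM, and was called only with the library as a block. The call of PTPN6 for all members was lost under 4 alternatives and that of RGS1 under 8. The summed list did not set PAX5-positive nuclei (1867.8 and 2691.1 CPM) apart from FLT3 PAPPA nuclei (2503 and 2037.6 CPM) or MARCO STAB1 nuclei (1729.5 and 2713.9 CPM). Against each of these, 0 of 6 tested were called. At an unadjusted edgeR p under 0.05, PAX5-positive nuclei had 1 higher against FLT3 PAPPA nuclei and 1 lower against MARCO STAB1 nuclei.

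The B lineage transcription factors split. Of 22 tested in all members, 5 were higher and 7 lower, a median log2 fold change of -0.20, close to that of all genes. MEF2C, which acts in B cell proliferation and survival after receptor engagement (chromosome Z, 61121809 to 61259046), had the largest log2 fold change of the list in PAX5-positive nuclei. It stood at 1611.2 and 1789.8 CPM there, at 333.3 and 36 CPM in EBF1-only nuclei and at 11 and 8.61 CPM in other barcodes (7.18, SE 0.30, adjusted p = 6.89e-119). BCL11A, required for early B cell formation in mice, stood at 1183.4 and 2008.7 CPM in PAX5-positive nuclei against 39.3 and 49.2 CPM (4.88, SE 0.27, adjusted p = 1.52e-69). A BCL11A UMI was present in 62.7% and 74.0% of PAX5-positive nuclei and in 17.4% and 66.7% of EBF1-only nuclei. SPI1, the PU.1 factor of myeloid and B cells, stood at 185.4 and 231.8 CPM against 13.2 and 10.8 CPM (3.85, SE 0.72), and FOXO1 at 712.9 and 605.2 CPM against 221.2 and 211.6 CPM (1.33, SE 0.27). FOXO1 lost its call for all members under DESeq2 and against similarly filtered barcodes. IRF4 passed in PAX5-positive nuclei (2.12, SE 0.65, adjusted p = 0.0158) and not in all members (adjusted p = 0.0528).

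Other factors of the list were lower or did not pass. TCF3 stood at 171.1 and 38.6 CPM in PAX5-positive nuclei against 886.6 and 989.4 CPM in other barcodes, and it fell by 3.48 (SE 0.35, adjusted p = 1.01e-20). ETS1, RUNX1 and IKZF2 were also lower in all members and in PAX5-positive nuclei, where their log2 fold changes were -1.73 (SE 0.26), -1.29 (SE 0.26) and -2.12 (SE 0.28). RUNX1 remained abundant in the members, at 2808.8 and 2394.9 CPM in PAX5-positive nuclei. IKZF1, the Ikaros factor, was lower in all members (log2 fold change -0.67, SE 0.25, adjusted p = 0.0449), a call lost under 9 alternatives. In PAX5-positive nuclei it stood at 912.5 and 1094.5 CPM against 978.7 and 860.4 CPM and did not pass (adjusted p = 0.874). BACH2 passed as lower in PAX5-positive nuclei (-0.76, SE 0.25, adjusted p = 0.0314) and not in all members. FOXP1, at 5304 and 4094.6 CPM, stood against 2996 and 3157 CPM and did not pass in either test.

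Among the largest increases outside the lists were CYBB, VOPP1 and PAX3. CYBB, the catalytic subunit of the phagocyte oxidase, stood at 613.1 and 733.9 CPM in PAX5-positive nuclei, 55.5 and 90 CPM in EBF1-only nuclei and 5.84 and 4.46 CPM in other barcodes (PAX5-positive nuclei, log2 fold change 6.77, SE 0.37, adjusted p = 7.77e-70). VOPP1 stood at 456.3 and 695.3 CPM in PAX5-positive nuclei against 6.51 and 4.94 CPM (6.39, SE 0.40, adjusted p = 5.71e-53). PAX3, a paired-box factor best known from neural crest and muscle, had 10 and 24 UMIs in PAX5-positive nuclei and none in EBF1-only nuclei. At 142.6 and 309 CPM against 1.57 and 1.43 CPM its log2 fold change was 6.88 (SE 1.09, adjusted p = 1.48e-08).

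Antigen presentation genes were among those higher in the members. In the MHC class II pathway 7 of 13 genes tested were higher and 1 was lower in all members, and 6 of 12 and 1 in PAX5-positive nuclei, with a median log2 fold change of 2.71 and 2.48. CD74, the invariant chain that guides class II molecules, stood at 1012.3 and 1120.2 CPM in PAX5-positive nuclei, at 1138.7 and 1610.7 CPM in EBF1-only nuclei and at 51.2 and 63 CPM in other barcodes. All 4 member values lay far above both others, and the log2 fold change was 4.25 (SE 0.28, adjusted p = 1.26e-49) for all members and 3.96 (SE 0.27, adjusted p = 5.05e-46) for PAX5-positive nuclei. The class II beta chains BLB1 and BLB2 were higher by 4.37 (SE 0.31) and 4.15 (SE 0.29) in all members, but they are near-identical copies, so the split of reads between them is uncertain. Replicate 2 held more of both in every group of nuclei, for BLB1 313.7 and 1030.1 CPM in PAX5-positive nuclei and 18.4 and 36 CPM in other barcodes. DMA and DMB2, whose products load peptide onto class II molecules, and the lysosomal thiol reductase IFI30 were also higher, from 2.81 (SE 0.28, IFI30) to 4.18 (SE 0.86, DMB2) in PAX5-positive nuclei. LGMN, a lysosomal protease, was lower at 42.8 and 12.9 CPM against 110.7 and 139.3 CPM, a call that DESeq2 did not make. At least 1 UMI of the class II set was present in 72.5% and 90.0% of PAX5-positive and 56.5% and 90.5% of EBF1-only nuclei. In replicate 2 a single EBF1-only nucleus gave 52.9% of the class II UMIs of that subset. The summed dendritic markers were also above other barcodes, as given above. Of 5 tested, only CADM1 was called higher in all members and none in PAX5-positive nuclei.

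In the class I pathway 6 of 7 genes were higher in all members and 3 in PAX5-positive nuclei, with a median log2 fold change of 2.19 and 1.17. B2M, the class I light chain, stood at 399.2 and 334.8 CPM in PAX5-positive nuclei, at 972.1 and 2006.7 CPM in EBF1-only nuclei and at 88.5 and 85.6 CPM in other barcodes. The EBF1-only values were the highest in both libraries, and the log2 fold change was 3.20 (SE 0.28, adjusted p = 9.18e-29) for all members and 1.80 (SE 0.34, adjusted p = 3.59e-06) for PAX5-positive nuclei. The class I heavy chains BF1 and BF2, also near-identical copies, were higher by 1.65 (SE 0.39) and 2.04 (SE 0.32) in PAX5-positive nuclei. TAP2, TAPBP and NLRC5 were called for all members and not for PAX5-positive nuclei. Against FLT3 PAPPA nuclei 3 of 5 class I genes tested were higher for all members, and against MARCO STAB1 nuclei 2 of 5. With PAX5-positive nuclei alone, 0 of 4 were called in either comparison, and 0 at an unadjusted edgeR p under 0.05. The list summed to 1411.5 and 1789.8 CPM in PAX5-positive, 724.5 and 910.4 CPM in FLT3 PAPPA and 1262 and 1020.6 CPM in MARCO STAB1 nuclei.

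Of 8 genes tested for costimulation and thymic B cell functions, 5 were higher in all members and 3 in PAX5-positive nuclei than in other barcodes. The list was not particular to the members. It summed to 1140.6 and 1068.7 CPM in PAX5-positive nuclei, 1515 and 1083.8 CPM in FLT3 PAPPA nuclei and 1589.2 and 1183 CPM in MARCO STAB1 nuclei. Other barcodes held 281.6 and 290.2 CPM. Against FLT3 PAPPA nuclei, 0 of 5 tested were called for all members. ICOSLG, the ligand of the T cell costimulator ICOS, stood at 228.1 and 283.3 CPM in PAX5-positive nuclei against 49.2 and 63.3 CPM in other barcodes (log2 fold change 1.92, SE 0.42, adjusted p = 0.000168). TRAF3, an adaptor of CD40 and BAFF receptor signalling, stood at 684.4 and 515 CPM against 152.5 and 154.9 CPM (1.68, SE 0.28, adjusted p = 5.97e-08). TNFRSF13C, the BAFF receptor, rested on 6 and 1 UMIs in PAX5-positive nuclei (4.07, SE 1.39, adjusted p = 0.0416). TNFSF13B, which encodes BAFF, and CD86 were called for all members on 3 and 6 and on 2 and 7 UMIs, and CD86 lost its call under 8 alternatives. CD40 had no UMI in any member and 2 and 4 UMIs in other barcodes, so its level was not resolved at this depth. CD80, CD83 and AIRE were not matched by symbol.

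Of 11 trafficking genes tested, 2 were higher and 3 lower in all members, and 2 and 2 in PAX5-positive nuclei. Of 6 survival genes, 3 were higher and 1 lower in all members, and 2 and 1 in PAX5-positive nuclei, while DESeq2 called none of them for all members, with 3 higher at an unadjusted p under 0.05. S1PR1, the receptor that directs lymphocyte egress, stood at 442 and 630.9 CPM in PAX5-positive nuclei, 27.8 and 72 CPM in EBF1-only nuclei and 104.4 and 88.9 CPM in other barcodes (PAX5-positive nuclei, log2 fold change 2.21, SE 0.30, adjusted p = 1.13e-11). CXCR5, the receptor for B cell follicles, was higher on 4 and 5 UMIs in all members (4.48, SE 1.19, adjusted p = 0.00187). CXCR4 was lower, with 0 and 2 UMIs in all members against 68.9 and 77.6 CPM, and the integrin gene ITGA4 was lower (log2 fold change -1.15, SE 0.26). The chemokine receptor CCR6 was lower in all members, with 0 and 1 UMIs (log2 fold change -3.81, SE 1.26, adjusted p = 0.02), and not in PAX5-positive nuclei (adjusted p = 0.228), a call lost under 6 alternatives. Of the survival genes, MCL1 and BCL2A1 were called higher in both tests and FAS in all members alone, calls lost under 5, 6 and 8 alternatives. MCL1 stood at 185.4 and 321.9 CPM in PAX5-positive nuclei against 84.4 and 81.6 CPM (1.34, SE 0.39, adjusted p = 0.00851), and BCL2A1 rested on 6 and 1 UMIs. BCL2L1, which encodes the survival protein Bcl-xL, had no UMI in any member against 119 and 137.9 CPM in other barcodes, at least 12.8-fold lower with the members set to 3 counts over both libraries. BCL2 stood at 1197.7 and 1081.6 CPM in PAX5-positive nuclei and 1259.4 and 1230.7 CPM elsewhere and did not pass (adjusted p = 0.444).

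No gene of immunoglobulin diversification and germinal centres passed among 11 tested in edgeR, for all members or PAX5-positive nuclei, or in DESeq2. At an unadjusted p under 0.05, 2 of them were lower and 0 higher in all members. BCL6, the germinal centre factor, stood at 185.4 and 141.6 CPM in PAX5-positive nuclei and 145.3 and 189.3 CPM in other barcodes. Of 9 plasma cell genes, 3 were higher in each test. MZB1, which assists immunoglobulin assembly, stood at 114.1 and 193.1 CPM in PAX5-positive nuclei against 0.449 and 1.27 CPM (log2 fold change 7.17, SE 1.20, adjusted p = 1.18e-07). DERL3, of endoplasmic reticulum protein disposal, stood at 185.4 and 128.8 CPM against 20.2 and 19.4 CPM (2.70, SE 0.70, adjusted p = 0.0022). The call of DERL3 for all members was lost under 4 alternatives. PRDM1, the plasma cell regulator, was called for all members with 8 and 8 UMIs in EBF1-only and 1 and 3 in PAX5-positive nuclei, and that call was lost under 10 alternatives. XBP1 had no UMI in PAX5-positive nuclei, and JCHAIN had 1 and 4.

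Against other barcodes no cell cycle gene was higher, in edgeR or DESeq2 and also at an unadjusted p under 0.05. Of 9 tested, 5 were lower in all members and CENPF alone in PAX5-positive nuclei. CENPF, a kinetochore protein of dividing cells, stood at 442 and 180.3 CPM in PAX5-positive nuclei, 0 and 36 CPM in EBF1-only nuclei and 555.6 and 378.3 CPM in other barcodes (PAX5-positive nuclei, log2 fold change -0.91, SE 0.29, adjusted p = 0.0261). The call of CENPF for all members was lost without the library block. TOP2A stood at 128.3 and 154.5 CPM in PAX5-positive nuclei against 254.4 and 194.4 CPM and did not pass there (adjusted p = 0.126). A UMI of the cell cycle list was present in 25.5% and 26.0% of PAX5-positive nuclei, and in replicate 2 a single nucleus gave 52.2% of those UMIs.

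T lineage genes were lower, on a comparison that the rule partly fixed, since members had to lack DNTT and RAG1. Of 15 T cell markers tested, 14 were lower in all members and 13 in PAX5-positive nuclei. TRAT1, an adaptor of the T cell receptor complex, stood at 28.5 and 12.9 CPM in PAX5-positive nuclei against 563.2 and 526.2 CPM (fell by 5.01 on the log2 scale, SE 0.51). LEF1 stood at 285.2 and 270.4 CPM against 5413 and 5640 CPM (fell by 4.59, SE 0.33), and BCL11B at 1283.2 and 592.3 CPM against 5358.2 and 5356.7 CPM (fell by 2.85, SE 0.28). RAG2, the recombinase partner of RAG1, had no UMI in any member and was at least 12.8-fold lower, and CD8BP was at least 39.3-fold lower. CD3D did not pass in PAX5-positive nuclei, at 128.3 and 283.3 CPM against 175.4 and 231.6 CPM (adjusted p = 0.783).

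**Figure D4:**
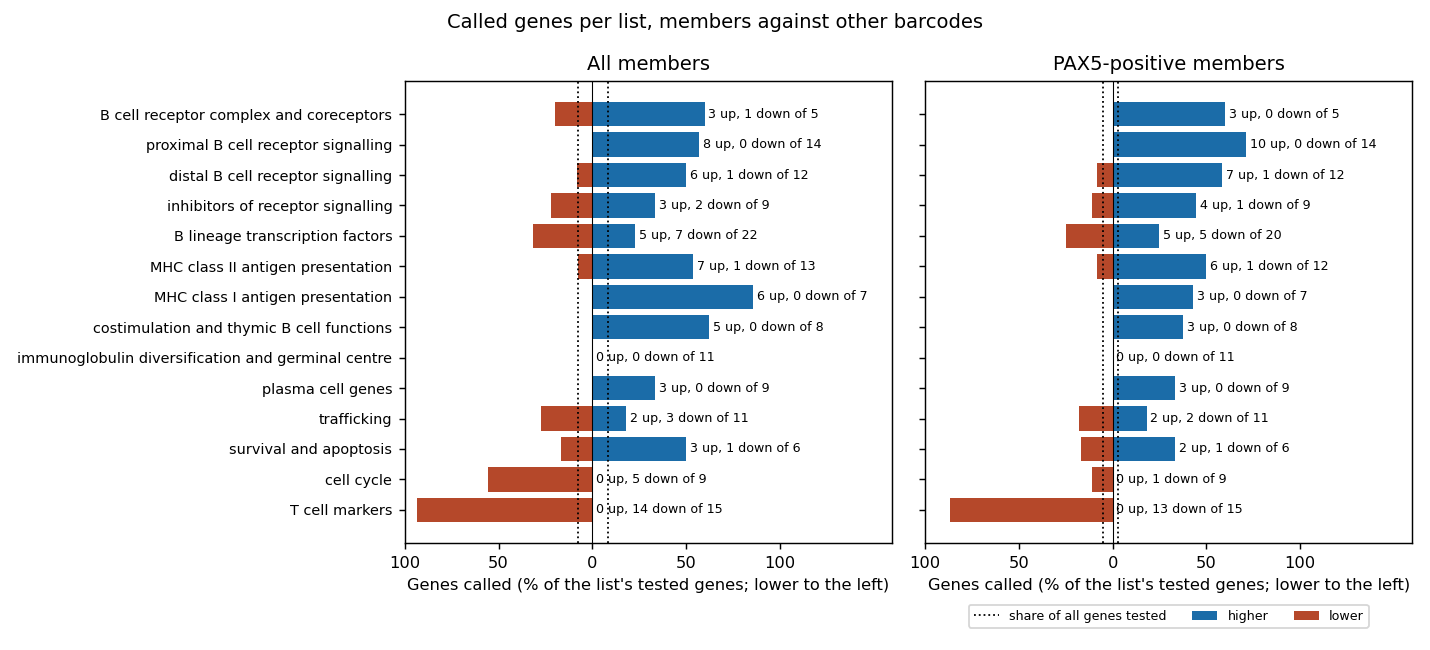
Share of each list's tested genes called higher (right) or lower (left) in all members and in PAX5-positive members against other barcodes, with the counts beside the bars; dotted lines mark the share of all genes tested (8.14% higher and 7.45% lower for all members, 3.1% and 5.38% for PAX5-positive nuclei). Proximal signalling has 8 and 10 of 14 genes higher, T cell markers 14 and 13 of 15 lower.

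The 2 subsets of members differed from each other. Of 2049 genes tested between PAX5-positive and EBF1-only nuclei, 394 were called (19.2%), 83 higher in PAX5-positive nuclei (4.05%) and 311 lower (15.2%). SYK, SH2D6, PLCG2, PIK3AP1, DAPP1 and VAV3 were the 6 of 12 proximal signalling genes that were higher, and none was lower. PLCG2 stood at 1211.9 and 1429.2 CPM against 166.6 and 162 CPM in EBF1-only nuclei (log2 fold change 2.53, SE 0.55, adjusted p = 0.000641), and VAV3 at 1240.4 and 1648.1 CPM against 444.4 and 198 CPM (1.83, SE 0.53, adjusted p = 0.00971). SYK, with 0 UMIs in EBF1-only nuclei, was at least 11.9-fold higher, and PAX3 at least 11.3-fold. MEF2C (3.28, SE 0.63), BCL11A (1.57, SE 0.50), IGLL1 (3.09, SE 0.70), PTPRC (2.10, SE 0.51), S1PR1 (2.82, SE 0.70) and the proton channel gene HVCN1 (3.12, SE 0.82) were higher as well. CENPF was also higher than in EBF1-only nuclei (2.78, SE 0.90, adjusted p = 0.0228), a call lost with at least 400 genes per nucleus.

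Class I genes were lower in PAX5-positive than in EBF1-only nuclei, 4 of 6 tested. B2M fell by 2.43 (SE 0.52, adjusted p = 0.000506), and BF1, BF2 and TAPBP were also lower. None of 6 class II genes passed in edgeR or DESeq2, 1 was lower at an unadjusted p under 0.05, and CD74 had a log2 fold change of -0.82 (SE 0.45, adjusted p = 0.246). EGFR and EHF were present in EBF1-only nuclei and at 0 UMIs in PAX5-positive ones. EGFR, a growth factor receptor, held 472.2 and 719.9 CPM in EBF1-only nuclei and was at least 32.5-fold lower in PAX5-positive nuclei, and the epithelial factor EHF, at 388.8 and 270 CPM, at least 14.7-fold lower. The synaptic adhesion gene CADM1, also a dendritic marker, stood at 1027.6 and 1349.8 CPM in EBF1-only nuclei and at 256.6 and 0 CPM in PAX5-positive nuclei (log2 fold change -4.07, SE 0.73, adjusted p = 7.03e-05). PAX9, a factor of pharyngeal endoderm and thymic epithelium, stood at 194.4 and 189 CPM against 0 and 12.9 CPM (log2 fold change -4.95, SE 1.35, adjusted p = 0.00601). DESeq2 called 86 genes in this comparison, and it did not call SH2D6, PIK3AP1, DAPP1, VAV3, BCL11A, IGLL1, PTPRC, S1PR1, BF2, EGFR or CADM1. Without called doublets, DAPP1, VAV3, BCL11A, PAX3, HVCN1 and CENPF were not called. SYK, PLCG2, MEF2C, B2M and BF1 kept their calls under every alternative that could be fitted. The deepest EBF1-only nucleus gave 19.4% and 22.7% of the subset's UMIs, and without it 350 genes were called.

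The members were also set beside the other antigen-presenting nuclei of the organ. These had 2 or more UMIs of FLT3 and PAPPA (15 and 16 nuclei, dendritic genes) or of MARCO and STAB1 (16 and 23 nuclei, macrophage genes). They also had no UMI of the 5 rule genes or of each other's gate genes. The members were not filtered on FLT3, PAPPA, MARCO or STAB1. Against FLT3 PAPPA nuclei, 90 of 2828 genes were called (3.18%), 55 higher (1.94%) and 35 lower (1.24%). With PAX5-positive nuclei alone 110 of 2239 were called (4.91%), 52 higher (2.32%) and 58 lower (2.59%). SH2D6 stood at 827 and 1197.5 CPM in PAX5-positive nuclei against 65.9 and 0 CPM in FLT3 PAPPA nuclei (log2 fold change 5.38, SE 0.92, adjusted p = 0.000548), and MEF2C at 1611.2 and 1789.8 CPM against 197.6 and 43.4 CPM (4.10, SE 0.65, adjusted p = 0.000272). CD81, VAV2 and NFATC1 were higher too. Of 12 proximal signalling genes tested, only SH2D6 and VAV2 were higher in all members, BANK1 was lower and the others were not called. With PAX5-positive nuclei alone, 4 of the 11 besides SH2D6 were called, BANK1 lower among them. Of 9 downstream signalling genes tested, NFATC1 alone was called for all members, and 1 gene for PAX5-positive nuclei. IGLL1 had no UMI in FLT3 PAPPA nuclei and was at least 7.94-fold higher in PAX5-positive nuclei (adjusted p = 0.00605), while all members did not pass (adjusted p = 0.0541). BANK1 ran the other way, at 114.1 and 90.1 CPM in PAX5-positive nuclei against 1383.2 and 1647.4 CPM (log2 fold change -3.80, SE 0.59, adjusted p = 0.000272). BCL11A did not separate the groups, at 1183.4 and 2008.7 CPM against 1910.2 and 2211 CPM (log2 fold change -0.30, SE 0.43, adjusted p = 0.806). The exchange factor TIAM1 (85.5 and 12.9 CPM against 2503 and 2948.1 CPM), PLBD1 and GAS7 were lower in the members. Of 9 class II genes tested, BLB2 alone passed, lower in PAX5-positive nuclei (log2 fold change -1.68, SE 0.42, adjusted p = 0.0166) and subject to its near-identical copy. At an unadjusted edgeR p under 0.05, 4 of the 9 were lower in PAX5-positive nuclei and 0 higher. The class II list summed to 2552.2 and 5292 CPM in PAX5-positive nuclei and to 4742.5 and 13092.9 CPM in FLT3 PAPPA nuclei.

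Against MARCO STAB1 nuclei, 215 of 2828 genes were called (7.6%), 101 higher (3.57%) and 114 lower (4.03%). With PAX5-positive nuclei alone 264 of 2239 were called (11.8%), 100 higher (4.47%) and 164 lower (7.32%). MEF2C, BCL11A, VAV2, NFATC1, IGLL1 and SH2D6 were higher in both tests. For all members the SH2D6 call (log2 fold change 1.87, adjusted p = 0.046) was lost under 3 alternatives and that of IGLL1 under DESeq2. Besides SH2D6, 11 proximal signalling genes were tested, and VAV2 alone was called for all members. Of 9 downstream signalling genes tested, NFATC1 alone was called for all members. With PAX5-positive nuclei alone, 2 of the 11 proximal and 2 of the 9 downstream genes were called, none of them lower. BCL11A stood at 1183.4 and 2008.7 CPM in PAX5-positive nuclei against 187 and 0 CPM (log2 fold change 4.61, SE 0.71, adjusted p = 7.18e-05), and VAV2 at 912.5 and 1274.7 CPM against 46.7 and 46.4 CPM (4.54, SE 0.65, adjusted p = 3.33e-05). Macrophage genes were lower, 4 of 4 tested. The choice of the reference nuclei by the macrophage genes MARCO and STAB1 partly fixed this outcome, so it does not bear on what the members are. The iron exporter SLC40A1 stood at 14.3 and 51.5 CPM against 888.1 and 1090.2 CPM (log2 fold change -4.94, SE 0.73, adjusted p = 5.41e-05), and the complement gene C1QC had no UMI in the members, at least 27.4-fold lower than in MARCO STAB1 nuclei. ZEB2 and ABCA1 were lower too, ZEB2 at 128.3 and 463.5 CPM against 10984.4 and 8721.5 CPM. CD74 stood at 1012.3 and 1120.2 CPM against 888.1 and 835 CPM and did not pass (log2 fold change 0.31, SE 0.44, adjusted p = 0.723). Of 9 class II genes tested, 2 were called for all members and 2 for PAX5-positive nuclei. At an unadjusted edgeR p under 0.05, 1 was higher and 3 lower in PAX5-positive nuclei. LGMN was lower in all members (log2 fold change -4.52, adjusted p = 0.000269). The class II list summed to 2552.2 and 5292 CPM in PAX5-positive and to 5422.1 and 6355.5 CPM in MARCO STAB1 nuclei. Both comparisons share the member sums.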

How the data were processed

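Nuclei of frozen thymus were isolated and captured in droplets with 10x Genomics 3′ chemistry, per the labels' protocols, which name more than 1 kit version. The deposited matrices hold unnormalised UMI counts, 1 matrix for each library, made with Cell Ranger 7.0.1 on GRCg7b, per the submitters' processing notes. Their names refer to CellBender, which removes counts ascribed to free RNA, so a 0 can follow from that removal. Of 28951 features, 12907 carry a symbol, and lists were matched by symbol. Positions are RefSeq's for GRCg7b.

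Barcodes needed 200 detected genes, which left 4559111 and 6463422 UMIs. Members needed 2 UMIs of PAX5 and EBF1 with DNTT, RAG1 and FOXN1 at 0, and these 5 genes stayed out of the tests. The members and gene lists were chosen with earlier results of these data known. UMIs were summed per library and group, since nuclei are not replicates. The test was edgeR 4.0.16 in R 4.3.3 (TMM, filterByExpr, glmQLFit and glmQLFTest, two-sided, library as a block because both sums come from the same library, over separate nuclei), and p-values were adjusted by Benjamini-Hochberg over every gene in the fit. With 2 libraries the fits leave few residual degrees of freedom, and the estimate of spread is shared across genes, so very small p-values lean on that sharing. SEs come from the F statistic. FLT3 PAPPA and MARCO STAB1 nuclei had the 5 rule genes and each other's gate genes at 0, a filter on FLT3, PAPPA, MARCO and STAB1 that members did not have. They entered 1 joint fit, also with DNTT RAG1 nuclei, and its 9 gate genes were left out. The PAX5-positive fit was chosen after seeing the data and leaves EBF1-only nuclei out of both sides. A group at 0 UMIs was set to 3 counts over both libraries for bounds. Intervals are exact (Clopper-Pearson) at 95%, and intervals and bounds cover counting error only. Sums do not separate more transcripts per nucleus from more nuclei with a transcript.

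For doublets, 2 artificial pairs were simulated per nucleus and each nucleus was scored by their share of its 30 neighbours in 30 components of 2000 variable genes (Python 3.11.15, numpy 2.4.6, scipy 1.17.1, pandas 2.3.3, scikit-learn 1.9.0). The highest 6% per library (310 and 334) were called, a preset rate, and kept in the main result. Alternatives were DESeq2 1.42.0, its size factors, no filter on low counts, no block, doublets removed, at least 400 genes, other gates, other reference barcodes and single libraries, and others named in the closing section were chosen after seeing the data. On simulated data the test against other barcodes (11508 genes) recovered 19.6% of genes changed by 1.5 and 54.5% of those changed by 3 on the log2 scale, with 5 false calls. The test between subsets (2051 genes) recovered 39.6% and 89%, with 1 false call. The simulation gave every gene the same dispersion, had no library effect on single genes and did not model single deep nuclei. Its rates therefore do not measure the error in these data.

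The text names genes of the gene lists, genes of the gates, the 10 genes with most UMIs in members and, in each comparison, the 15 largest called changes in each direction with the same sign in both libraries and at least 10 UMIs in each. Some genes of the lists are not reported here.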

Additional observations from a re-analysis of the deposited data

How the results depend on the processing

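Of 176 called gene results followed through the alternatives, 87 kept their call under every alternative that could be fitted. Against all other barcodes 1793 genes were called, and leaving out the replicate block, the pairing of sums by library, gave 1348, with 548 lower instead of 857. Without the block the counts were 88 instead of 90 against FLT3 PAPPA nuclei, 247 instead of 215 against MARCO STAB1 nuclei and 365 instead of 394 between the subsets. DESeq2 called 934 genes against other barcodes (609 higher and 325 lower). It called 55 genes lower against FLT3 PAPPA nuclei instead of 35, 64 higher against MARCO STAB1 nuclei instead of 101, and 86 between the subsets (12 higher and 74 lower instead of 83 and 311). Requiring at least 1 UMI of PAX5 and of EBF1 gave 818 genes against other barcodes (281 higher and 537 lower) and 53 lower against FLT3 PAPPA nuclei. PAX5-positive nuclei alone, an alternative chosen after seeing the data, gave 897 (328 higher and 569 lower) and 58 lower against FLT3 PAPPA nuclei. Without the deepest PAX5-positive nucleus of each library, also chosen after seeing the data, 879 genes were called and 297 were higher. Other barcodes without UMIs of the 5 rule genes gave 483 genes lower. Between the subsets, 36 genes were higher in PAX5-positive nuclei without called doublets and 53 with at least 400 genes per nucleus. The share of members, a mean of 1.35%, became 1.86% with at least 400 genes, 0.84% with both genes required, 1.10% with a sum of 3 or more, 0.942% with PAX5 required and 1.12% without nuclei that had 2 or more T cell UMIs, and it ran from 1.27 to 1.43% over single libraries. EPCAM turned to log2 fold changes of -8.74, -8.14 and -8.12, and CDH1 to -8.19, -7.91 and -7.90, with both genes required, with PAX5 required and without the deepest such nuclei. CADM1 turned to -2.83 in the last of these and GRM7 to -7.94 in the first, and none of these reversed values was called. PAX5-positive nuclei hold no UMI of EPCAM, CDH1 or GRM7. For the other changes the cause was not tested. DESeq2 also did not call BCL2L1, RAG2 and CD8BP, which are at 0 in the members. The median log2 fold change over all genes against other barcodes was -0.21, and -0.999 without the filter on low counts. A single library leaves 1 sum a side and no residual degrees of freedom, so it gave values and no calls. With 22 and 18 PAX5 UMIs outside the members, and 70136 and 77664 UMIs in PAX5-positive nuclei, a level under 42.8 and 38.6 CPM there rests on fewer than 3 UMIs.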

Other observations

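Several of the largest increases in all members against other barcodes came mainly from EBF1-only nuclei. PDGFD, a growth factor, stood at 722.1 and 252 CPM in EBF1-only nuclei, 42.8 and 0 CPM in PAX5-positive nuclei and 0.898 and 1.59 CPM in other barcodes. PLXNA4, a semaphorin receptor, stood at 3194 and 368.9 CPM in EBF1-only nuclei and at 399.2 and 25.8 CPM in PAX5-positive nuclei, and its call with PAX5-positive nuclei was lost without the deepest nucleus of each library. The chemokine gene IL8L1 stood at 388.8 and 350.9 CPM in EBF1-only nuclei, against 142.6 and 0 CPM in PAX5-positive nuclei. The homeobox gene OTP (305.5 and 431.9 CPM), the glutamate receptor gene GRM7 (305.5 and 647.9 CPM) and the factor GATA5 (277.7 and 207 CPM) had the same order, with at most 99.8 CPM in PAX5-positive nuclei. CHGA, a granule protein of endocrine cells, had 1 and 580 UMIs in EBF1-only nuclei, and a single nucleus of replicate 2 held 94.8% of the 580.

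ERG, a factor best known from endothelium, differed from this order. It stood at 242.4 and 180.3 CPM in PAX5-positive nuclei, 194.4 and 0 CPM in EBF1-only nuclei and 15.3 and 22.6 CPM in other barcodes, higher by 3.22 (SE 0.63, adjusted p = 1.14e-05) in PAX5-positive nuclei. NEUROD6, a factor known from neurons, stood at 171.1 and 38.6 CPM in PAX5-positive and 83.3 and 63 CPM in EBF1-only nuclei, against 2.02 and 0.319 CPM elsewhere (6.20, SE 1.27, adjusted p = 3.37e-05 in PAX5-positive nuclei).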
